A study of Mus musculus with 2 samples.

Results

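The genes described here are 8 members of the mouse Ifi200 family: Ifi202b, Ifi203, Ifi204, Ifi205, Mndal, Pyhin1, Pydc4 and Aim2. They are 8 of the 27998 mouse genes listed for both libraries of the series, and were found by their listed symbols. Ifi202b was picked because its transcripts had been counted in tumour 2 and hardly in tumour 1. Its difference between the tumours is therefore a description and carries no test. The question was whether the Ifi202b transcripts of tumour 2 lay in host cells, in EGFP-high glioma cells or in both, and how the other family genes lay beside them.

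Each of the 2 libraries was made from 1 glioblastoma (GBM) of a C57BL/6 mouse aged 3 months, and they are called tumour 2 and tumour 1. Both carry the NPCTKO model, in which embryonic neural progenitors were electroporated in utero with transposon plasmids for Cas9, luciferase, a fluorescent label and guide RNAs, including some that target Nf1 and Trp53, genes that restrain tumour growth. Vessels and immune cells of such tumours come from the host. Per the study, the hosts carried the Ai14 tdTomato reporter with either Tek-Cre, active in endothelial cells and some blood-derived cells, or Tbx18CreERT2/+, active in mural cells after tamoxifen. The labels do not tie a host to a library. Host genotype, tumour and library therefore cannot be told apart in any difference between the tumours. Tumour 2 gave 18596 barcodes and 295366782 UMIs (molecular tags that count each captured transcript once), and tumour 1 gave 14302 barcodes and 282961884 UMIs. The libraries shared 51 barcode sequences, of which 4 had the same main class in both.

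The Ifi200 genes form a cluster on chromosome 1 and encode interferon-inducible proteins of the PYHIN family. Most pair a pyrin domain, which binds other signalling proteins, with 1 or more HIN domains, which bind DNA. Aim2 senses DNA in the cytosol and builds an inflammasome with Pycard and Casp1, Ifi204 has been linked to the DNA-sensing route through Sting, and Ifi202b lacks the pyrin domain and restrains Aim2. Ifi202b is also known as a lupus susceptibility candidate of New Zealand Black mice and as a gene whose level differs among inbred mouse strains. Ifi203, Mndal, Ifi205, Pyhin1 and Pydc4 are less well studied members of the same cluster.

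The promoters of Ifi202b, Ifi203, Mndal and Pyhin1 are printed because Ifi202b stood apart from its family, Ifi203 and Mndal were both lower in tumour 2 in host and glioma cells, and Pyhin1 had like levels in monocytes of both tumours. Each window is the 250 bases before the start of a RefSeq transcript (build GRCm38.p6), on the transcript's strand. Capitals mark the core of an interferon-stimulated response element (ISRE), searched as GAAA, 2 bases of any kind and GAAA again, and TTCNNNGAA, the core that STAT proteins bind, both searched on both strands; the marked sites do not overlap. The Ifi202b window lies at chr1:173982845-173983094 (minus strand), the Ifi203 window at chr1:173942493-173942742 (minus), the Mndal window at chr1:173880188-173880437 (minus) and the Pyhin1 window, under the RefSeq name Ifi209, at chr1:173630609-173630858 (plus).
Ifi202b: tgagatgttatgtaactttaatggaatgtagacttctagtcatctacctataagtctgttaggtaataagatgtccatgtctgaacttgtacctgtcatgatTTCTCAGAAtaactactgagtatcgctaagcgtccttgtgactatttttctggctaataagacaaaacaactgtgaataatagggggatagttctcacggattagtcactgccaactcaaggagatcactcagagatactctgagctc
Ifi203: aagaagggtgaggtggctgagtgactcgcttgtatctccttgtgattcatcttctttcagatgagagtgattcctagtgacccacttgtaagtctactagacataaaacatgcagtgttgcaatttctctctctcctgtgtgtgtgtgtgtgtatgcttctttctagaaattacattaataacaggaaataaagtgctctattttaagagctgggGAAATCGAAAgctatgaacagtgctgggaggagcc
Mndal: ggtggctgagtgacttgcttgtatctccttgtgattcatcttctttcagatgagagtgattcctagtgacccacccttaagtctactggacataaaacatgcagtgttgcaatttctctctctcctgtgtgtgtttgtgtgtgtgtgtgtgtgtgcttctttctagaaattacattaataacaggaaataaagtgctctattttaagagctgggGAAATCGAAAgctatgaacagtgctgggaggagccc
Pyhin1: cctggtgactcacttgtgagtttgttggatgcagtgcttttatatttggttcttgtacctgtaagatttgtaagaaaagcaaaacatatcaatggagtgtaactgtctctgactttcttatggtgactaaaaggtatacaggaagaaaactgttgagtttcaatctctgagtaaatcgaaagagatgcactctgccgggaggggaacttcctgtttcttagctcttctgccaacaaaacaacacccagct

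The family counts 13 symbols in the files, and 12 of them, with 7 of the 8 members, had a promoter entry. The ISRE core was found in 9 of these 12 genes. Among the members it was found in 4, Ifi203, Ifi205, Mndal and Pydc4, and its letters were not in the windows of Ifi202b, Pyhin1 and Aim2. Ifi203 and Mndal each have 2 windows, of 2 RefSeq starts. Of Ifi203, 1 window holds the core, the one printed, and the other, at chr1:173942673-173942922, does not. Both Mndal windows hold it. Of 32851 promoter windows of this length, 978 (2.98%) held it. TTCNNNGAA was found in 1 of the 12 genes, Ifi202b, against 2306 (7.02%) of all windows. The Ifi203 and Mndal windows shared a run of 96 bases, which holds the ISRE core 25 bases before the Ifi203 start and 26 before the Mndal start. The longest run that Ifi202b shared with any other family window was 11 bases, with Pyhin1 and BC094916.

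Cells were assigned to classes by the summed level of fixed marker genes in raw UMIs, and host cells had to be EGFP-low. The myeloid class held 2093 cells in tumour 2 and 920 in tumour 1, the T cell class 596 and 260, the endothelial cell (EC) class 23 and 41, and the EGFP-high glioma class 3574 and 6396. A mural gate gave 19 cells in tumour 2 and 4 in tumour 1, too few for the test. The gates used the class markers and EGFP, so the levels given next describe the classes and are no check of them. The 10 endothelial markers summed to 7716 CPM (UMIs per 1000000 UMIs of the class) in ECs of tumour 2 and 14932 CPM in tumour 1. None of the 10 was at 0. EGFP stood at 654 CPM in myeloid cells and 16070 CPM in glioma cells of tumour 2, and at 566 CPM and 12788 CPM in tumour 1. No class was given to 57.9% of kept cells in tumour 2 and 39.1% in tumour 1. All intervals below are exact 95% intervals and cover counting error only. Where no UMI or no cell was counted, the limit given is that of 3 counts, for levels, folds and shares alike. A fold against this floor uses the level counted in the other tumour and leaves out its counting error.

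Ifi202b transcripts of tumour 2 lay mostly in myeloid cells, and were also counted in mural cells, ECs, dendritic cells and, at low level, T cells and glioma cells. All barcodes together held 3536 Ifi202b UMIs in tumour 2 and 13 in tumour 1. Of the 3487 in kept cells of tumour 2, myeloid cells held 2687 (77.1%), glioma cells 156 (4.47%), T cells 32 (0.918%), mural cells 17 (0.488%) and ECs 10 (0.287%), while 572 (16.4%) lay in cells with no class. The 13 UMIs of tumour 1 all lay in glioma cells.

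In myeloid cells, Ifi202b stood at 72.9 CPM in tumour 2 (95% interval 70.1 to 75.7) and had no UMI in tumour 1, which allows up to 0.184 CPM. Against this floor of 3 UMIs per library and class, the level counted in tumour 2 was 397-fold higher. Within the myeloid class of tumour 2, monocytes had the highest level at 117 CPM (111 to 123). Microglia had 49.6 CPM (45.9 to 53.4), other myeloid cells 51.9 CPM (47.5 to 56.5) and neutrophils 21.5 CPM (9.27 to 42.3). The intervals of microglia and other myeloid cells overlapped, and that of monocytes lay above all others. The 632 microglia of tumour 1 had 0 UMIs, and the microglia level counted in tumour 2 was 211-fold over the floor.

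In T cells, Ifi202b stood at 3.92 CPM in tumour 2 (2.68 to 5.53, 32 UMIs) and at 0 UMIs in tumour 1. The counted level was 4.13-fold over the tumour 1 floor of 0.948 CPM. ECs had 20.8 CPM in tumour 2 (9.97 to 38.2, 10 UMIs) and 0 UMIs in tumour 1, 4.79-fold over the floor of 4.34 CPM. With so few UMIs, the lower ends of the 2 intervals lie nearer to these floors. Mural cells had 59.6 CPM in tumour 2 (34.7 to 95.4, 17 UMIs in 19 cells). The 4 mural cells of tumour 1 had 0 UMIs, which allows up to 164 CPM, so that no mural difference was detectable at this depth. Glioma cells had 1.97 CPM in tumour 2 (1.67 to 2.30) and 0.0815 CPM in tumour 1 (0.0434 to 0.139), a ratio of 24.1 (13.7 to 46.3). EGFP-low oligodendrocytes of tumour 2 had 1 UMI (1.25 CPM, 0.0318 to 6.99), and those of tumour 1 had none.

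**Figure D1:**
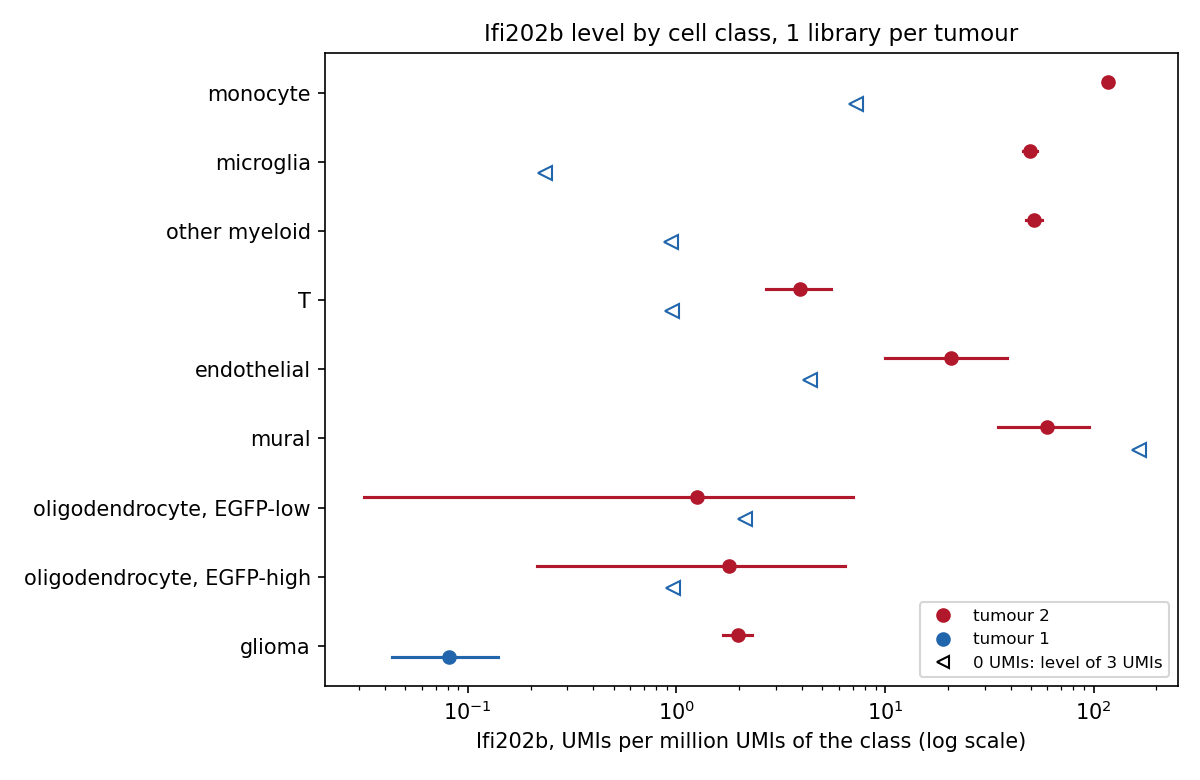
Ifi202b level by cell class on a log axis of CPM, tumour 2 in red above tumour 1 in blue; bars are exact 95% intervals for counting error, and open triangles mark the level of 3 UMIs where no UMI was counted. The myeloid, T, endothelial and mural points of tumour 2 lie between 3.92 CPM in T cells and 117 CPM in monocytes, EGFP-low oligodendrocytes lie at 1.25 CPM, and of tumour 1 only glioma cells have a point, at 0.0815 CPM.

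Within tumour 2, the Ifi202b level was 37.1 times that of glioma cells in myeloid cells (31.5 to 43.9), 30.3 times in mural cells (17.2 to 50.1), 10.6 times in ECs (4.98 to 19.98) and 1.99 times in T cells (1.32 to 2.93). EGFP-low oligodendrocytes, another class of neural origin, were at 0.638 times the glioma level (0.0161 to 3.61). The order of classes was thus myeloid, mural, endothelial, T and glioma, and the intervals of myeloid and mural cells overlapped, as did those of mural cells and ECs. The EC interval lay above that of T cells. Dendritic cells, not placed in this order, had 19.1 CPM (8.74 to 36.3, 9 UMIs in 27 cells), which overlaps the 9.97 to 38.2 CPM of ECs. NK cells had 1 UMI (1.56 CPM), EGFP-high oligodendrocytes had 2 (1.78 CPM) and B cells had 0.

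Counted by cell, 1133 of 2093 myeloid cells of tumour 2 (54.1%) had an Ifi202b UMI, 385 of them 3 or more, and the most in 1 cell was 13. In T cells it was 28 of 596 (4.70%), in ECs 7 of 23 (30.4%), in mural cells 9 of 19 and in glioma cells 100 of 3574 (2.798%). Depth differs between classes, with medians of 14639 UMIs in myeloid cells, 8257.5 in T cells, 11219 in ECs and 18676 in glioma cells. Thinned to 2000 UMIs per cell, 13.7% of myeloid cells had a UMI (12.3 to 15.3), 8.70% of ECs (1.07 to 28.0), 1.01% of T cells (0.370 to 2.18) and 0.533% of glioma cells (0.321 to 0.831), after 7 shallower glioma cells were left out. With a stricter gate the thinned shares were 0.346% in T cells (2 of 578) and 0.311% in glioma cells, and with a limit of 10% on mitochondrial UMIs the glioma share was 0.236%. The T cell and glioma intervals overlap, so the T cell share is not separate from the low share of glioma cells. In tumour 1 the thinned share was 0 in each of these 4 classes. There, 0 of 900 myeloid cells allows up to 0.333%, 0 of 257 T cells up to 1.17%, 0 of 39 ECs up to 7.69% and 0 of 6353 glioma cells up to 0.0472%, each as a limit on cells with a UMI.

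The glioma counts of tumour 2 were uneven. Of the 100 glioma cells with an Ifi202b UMI, 80 had 1, 7 had 2 and 13 had 3 or more, up to 11. Those 13 cells held 62 of the 156 UMIs (39.7%), a level of 114 CPM. Their lowest EGFP level was 3130 CPM and their median 17567 CPM, against 16070 CPM over the glioma class. Their Tyrobp level was 27.6 CPM, against 36.1 CPM over the class and 3034 CPM in myeloid cells. Tyrobp encodes an adaptor protein of myeloid receptors. Their median depth was 34019 UMIs against 18676 in the class, so these cells were also the more deeply counted ones. In tumour 1, 5 glioma cells held the 13 UMIs, and 1 EGFP-high cell (32754 CPM) with 1 Tyrobp UMI held 7 of them. The 13 cells were picked by their Ifi202b count, so these values are a description. The glioma gate asks for at least 3000 CPM of EGFP and for low myeloid markers, Tyrobp among them. It thus set high EGFP and low Tyrobp in these cells in advance, and neither value checks what the cells are.

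RNA set free in a suspension enters all droplets in 1 ratio of genes, so the Ifi202b count was set against myeloid genes in each class of tumour 2. Per 100 Tyrobp UMIs, myeloid cells had 2.40 Ifi202b UMIs, monocytes 4.01 and microglia 1.44. Glioma cells had 5.45 (156 against 2861), which is 2.27 times the myeloid ratio (1.91 to 2.68). Glioma cells had to be low in Tyrobp and the other gate markers, which lowers their level there, and Fcgr3, an Fc receptor gene used in no gate, gave 2.65 times (2.19 to 3.18). Over the 7 myeloid genes tried, the glioma ratio was 2.27 to 3.79 times that of myeloid cells. Ifi204, the member with the highest myeloid level, had a glioma ratio of 1.19 times with Tyrobp (1.01 to 1.40) and 1.39 times with Fcgr3 (1.16 to 1.66). Over the same 7 genes its ratio was 1.19 to 1.99 times, the highest with Ms4a6c (1.64 to 2.40). All 7 of these intervals lay above 1 as well. All 10 myeloid markers were also seen in glioma cells, at a summed 358 CPM in tumour 2 and 217 CPM in tumour 1. Against monocytes alone, the source with the highest level, the glioma ratio of 5.45 per 100 Tyrobp UMIs compares with 4.01. This gap was the narrowest of the 7 genes, and the widest was with Ms4a6c, at 42.7 against 11.1. The glioma ratio lay above that of monocytes for all 7. How much of the glioma count is free RNA was not tested.

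In T cells the Ifi202b ratio was 2.21 times the myeloid one with Tyrobp (1.49 to 3.16) but 1.35 times with Ctss (0.918 to 1.92), and with Ctss, Fcer1g and Ms4a6c the interval held 1. ECs had 10 Ifi202b against 10 Tyrobp UMIs, 41.6 times the myeloid ratio (15.5 to 112), and mural cells 17 against 14, 50.6 times (23.4 to 111). T cells of tumour 2 with an Ifi202b UMI had more Tyrobp than the others, 168 CPM against 68.8 CPM. Their interferon-response list, a sum over 40 fixed genes, stood at 8493 CPM against 4701 CPM. Glioma cells with an Ifi202b UMI had 36.1 CPM of Tyrobp and those without 36.0 CPM, while the interferon list stood at 8591 CPM and 5744 CPM and the median depth at 25068.5 and 18561 UMIs. The part of free myeloid RNA in the T cell count was not tested.

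**Figure D2:**
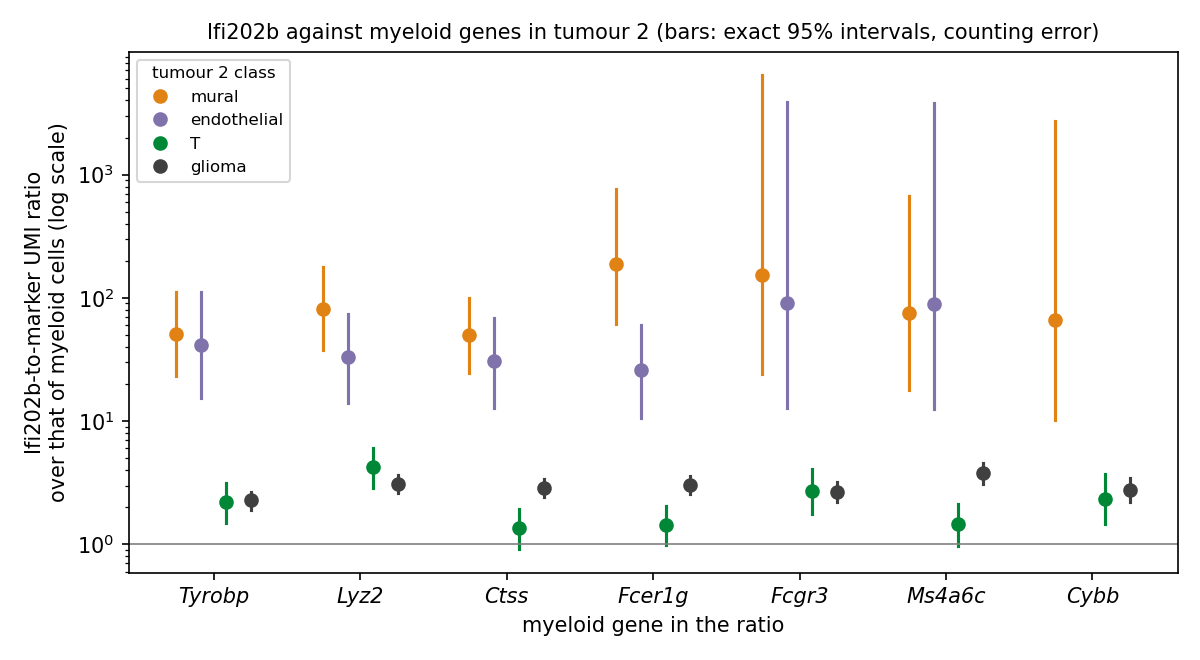
Ratio of Ifi202b UMIs to UMIs of 7 myeloid genes in mural, endothelial, T and glioma cells of tumour 2, divided by the same ratio in myeloid cells, on a log axis; bars are exact 95% intervals for counting error and the line at 1 is the myeloid ratio. The glioma points lie between 2.27 with Tyrobp and 3.79 with Ms4a6c, the T cell bars cross the line for Ctss, Fcer1g and Ms4a6c, and mural and endothelial points lie above 10.

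The other members showed no such gap, and most of them were lower in tumour 2. In microglia this held for 7 of the 8 members, of which Aim2 differed little, at a ratio of 0.983 (0.846 to 1.14). Over all 8 members, Ifi202b included, the median log2 ratio of tumour 2 over tumour 1 was -0.91. Over all genes it was -0.30, so most genes were lower there as well. Ifi203 and Mndal, neighbours whose gene models overlap on 1 strand, had near-equal levels in monocytes, T cells and glioma cells. In microglia the Mndal level was higher, with 21.6 CPM (19.2 to 24.2) against 11.2 CPM of Ifi203 (9.48 to 13.1) in tumour 2, and 59.6 CPM against 39.2 CPM in tumour 1. Ifi203 had 118 CPM in monocytes of tumour 2 and 427 CPM in tumour 1, and Mndal 112 CPM and 417 CPM. In T cells Ifi203 stood at 51.8 CPM in tumour 2 (46.9 to 56.9) and 258 CPM in tumour 1 (240 to 276), a ratio of 0.201 (0.178 to 0.226). Mndal T cell levels were 58.8 CPM in tumour 2 and 261 CPM in tumour 1, a ratio of 0.226. Their ratios in glioma cells were 0.224 (2.47 CPM in tumour 2, 11.04 CPM in tumour 1) and 0.272 (2.60 CPM and 9.54 CPM). Both genes were thus lower in tumour 2 in the host classes and in glioma cells, where Ifi202b was higher. The Mndal model also holds Mnda, and reads of overlapping models may have been dropped or split in counting.

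**Figure D3:**
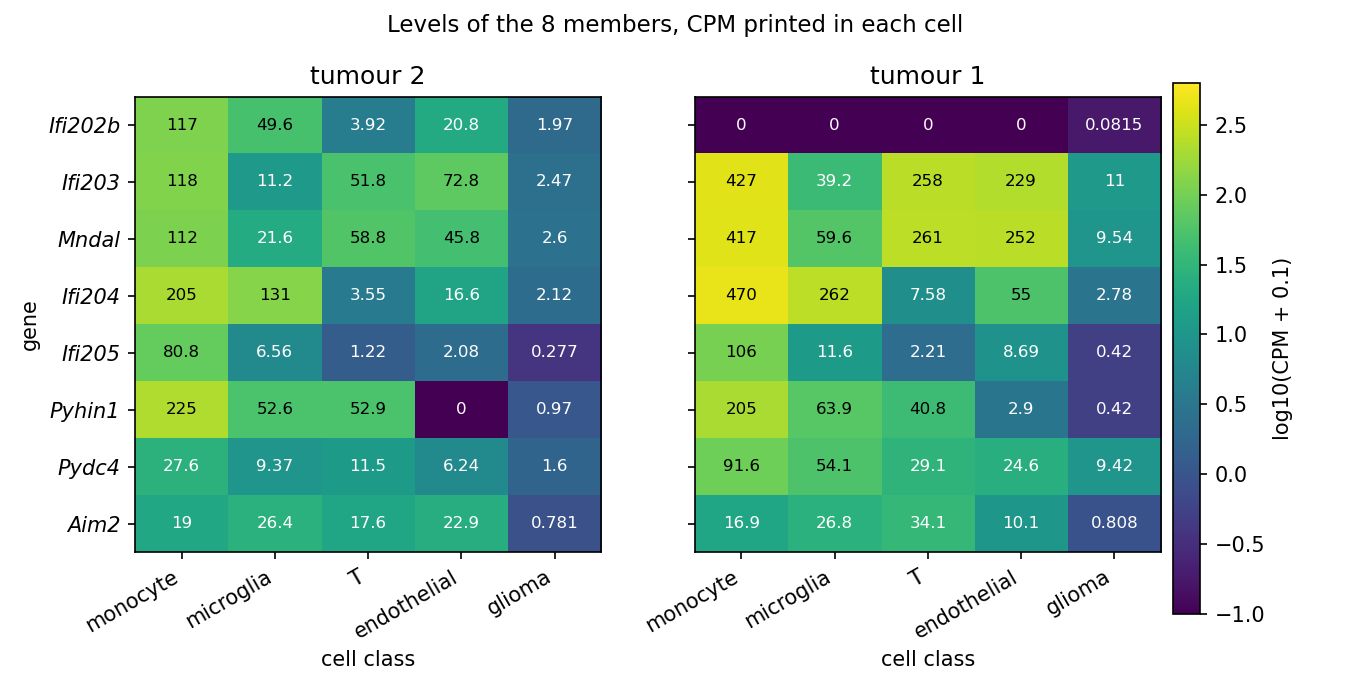
Level of the 8 members in 5 cell classes of tumour 2 (left) and tumour 1 (right), coloured by log10 of CPM plus 0.1, with the CPM printed in each field. Ifi202b is at 0 in the 4 host classes of tumour 1, while Ifi203 and Mndal are lower in tumour 2 in all 5 classes.

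The make-up of the myeloid class differed between the tumours, and this touches every level of the class as a whole. Monocytes were 886 of 2093 myeloid cells in tumour 2 and 42 of 920 in tumour 1, and microglia 498 and 632. Ifi203 had a ratio of 0.775 over all myeloid cells, but 0.277 in monocytes, 0.285 in microglia and 0.283 in other myeloid cells. Ifi205 was higher in tumour 2 over all myeloid cells, with 35.1 CPM against 19.2 CPM and a ratio of 1.83 (1.62 to 2.08). Within microglia it was lower, with 6.56 CPM against 11.6 CPM and a ratio of 0.565 (0.430 to 0.738), and in monocytes the ratio was 0.762 (0.564 to 1.06). Pyhin1 likewise had a ratio of 1.64 over all myeloid cells, and 0.824 in microglia (0.744 to 0.911) and 1.10 in monocytes (0.887 to 1.38). For both genes the ratio over the whole class lay above the ratios within microglia and monocytes.

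Ifi204 had the highest level of the members in microglia of both tumours. It stood at 131 CPM in microglia of tumour 2 (125 to 137) and 262 CPM in tumour 1 (253 to 271), a ratio of 0.4997 (0.472 to 0.529). In monocytes it had 205 CPM in tumour 2 and 470 CPM in tumour 1. T cells had 3.55 CPM of Ifi204 in tumour 2 and 7.58 CPM in tumour 1, and glioma cells 2.12 CPM and 2.78 CPM.

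Pydc4 had the widest gap of the members in microglia after Ifi202b, in the other direction. It had 9.37 CPM in microglia of tumour 2 (7.83 to 11.1) and 54.1 CPM in tumour 1 (50.1 to 58.2), a ratio of 0.173. In glioma cells it had 1.6 CPM in tumour 2 and 9.42 CPM in tumour 1, a ratio of 0.170 (0.141 to 0.204). Of its 50-base windows near the transcript end, where 3′ tags lie, 18.7% occur in another gene, chiefly Pydc3, and its count is uncertain to that extent.

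Aim2, the cytosolic DNA sensor, differed little between the tumours in microglia and glioma cells. It had 26.4 CPM in microglia of tumour 2 and 26.8 CPM in tumour 1, a ratio of 0.983 (0.846 to 1.14), and in glioma cells a ratio of 0.966 (0.702 to 1.32). T cells were the exception, with 17.6 CPM in tumour 2 and 34.1 CPM in tumour 1, a ratio of 0.516 (0.400 to 0.669). In monocytes of tumour 2 Ifi202b was at 117 CPM and Aim2 at 19.0 CPM, and in microglia at 49.6 CPM and 26.4 CPM. These are levels per captured 3′ end, which do not scale with transcript length.

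Pyhin1 was counted in immune cells and hardly in vessels. T cells had 52.9 CPM in tumour 2 and 40.8 CPM in tumour 1, while ECs had 0 UMIs in tumour 2 and 2 UMIs (2.90 CPM) in tumour 1. Near its transcript end 63.4% of windows also occur in BC094916, and near that of Ifi205 79.2% also occur in another gene, chiefly Mnda, so these counts are uncertain. No such window of Ifi202b (0 of 451) occurred in another gene. Dendritic cells had the highest Ifi205 level of any class, with 113 CPM in tumour 2 (84.3 to 147, 27 cells) and 659 CPM in tumour 1 (558 to 773, 13 cells). In tumour 2 that interval overlaps the one of monocytes, whose level was 80.8 CPM (75.9 to 85.96).

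Whether the members differed between host and glioma cells was tested with edgeR's quasi-likelihood test on sums per tumour and class, with the tumour as a block and p-values adjusted over 13115 genes. All 8 members passed the filter on low counts, and since a gene high in any class passes it, their counts of calls are a description. In myeloid over glioma cells all 8 members were higher, where 25.8% of all genes were called higher and 25.5% lower. The median log2 fold change of the members was 5.37, against -0.000366 over all genes. The largest were Pyhin1 at 8.02 ± 0.46 (SE, edgeR adjusted p = 2.62e-07), Ifi204 at 7.23 ± 0.34 (edgeR adjusted p = 1.65e-07) and Ifi205 at 7.12 ± 0.56. Aim2 was higher by 5.80 ± 0.45 (edgeR adjusted p = 1.83e-06), and Pydc4 had the smallest change at 3.86 ± 0.33. Ifi202b was higher by 4.94 ± 0.91 (edgeR adjusted p = 0.000862), the largest SE of the members. Its call rests on tumour 2 alone, where the log2 fold change was 5.99, since myeloid cells of tumour 1 held 0 UMIs, and the fitted value over both tumours is no bound. It was lost without the block (edgeR adjusted p = 0.0749) and with DESeq2 (adjusted p = 0.131), within a range of 1.85e-19 to 0.131 over 9 alternatives.

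In T cells over glioma cells 7 of 8 members were higher, where 24.6% of all genes were called higher and 23.4% lower. Pyhin1 was higher by 6.89, Aim2 by 5.71, Mndal by 5.39 and Ifi203 by 5.22 on the log2 scale, and Ifi204 by 1.81 (edgeR adjusted p = 0.000828). Ifi202b did not pass, with a log2 fold change of 0.98 ± 0.91 (edgeR adjusted p = 0.396; 0.199 to 0.817 over 9 alternatives).

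In ECs over glioma cells 6 of 8 members were higher, where 15.1% of all genes were called higher and 12.5% lower. Ifi203 was higher by 4.91 and Mndal by 4.86, Aim2 by 4.61, Ifi205 by 4.34, Ifi204 by 4.09 and Pydc4 by 1.97 (edgeR adjusted p = 0.00793). The Pydc4 call was lost without the block (edgeR adjusted p = 0.201; 0.00114 to 0.201 over 9 alternatives). The Ifi205 call rests on 1 UMI in ECs of tumour 2 and 6 in tumour 1, and was lost without the tenth of cells with the most UMIs (edgeR adjusted p = 0.169; 1.26e-06 to 0.169 over 9 alternatives). Ifi202b, with 2.96 ± 1.21 (edgeR adjusted p = 0.0928), and Pyhin1, with 1.72 ± 1.28 (edgeR adjusted p = 0.356), did not pass. With no filter on low counts Ifi202b did pass in ECs (edgeR adjusted p = 0.000467), within 0.000467 to 0.456 over 9 alternatives.

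**Figure D4:**
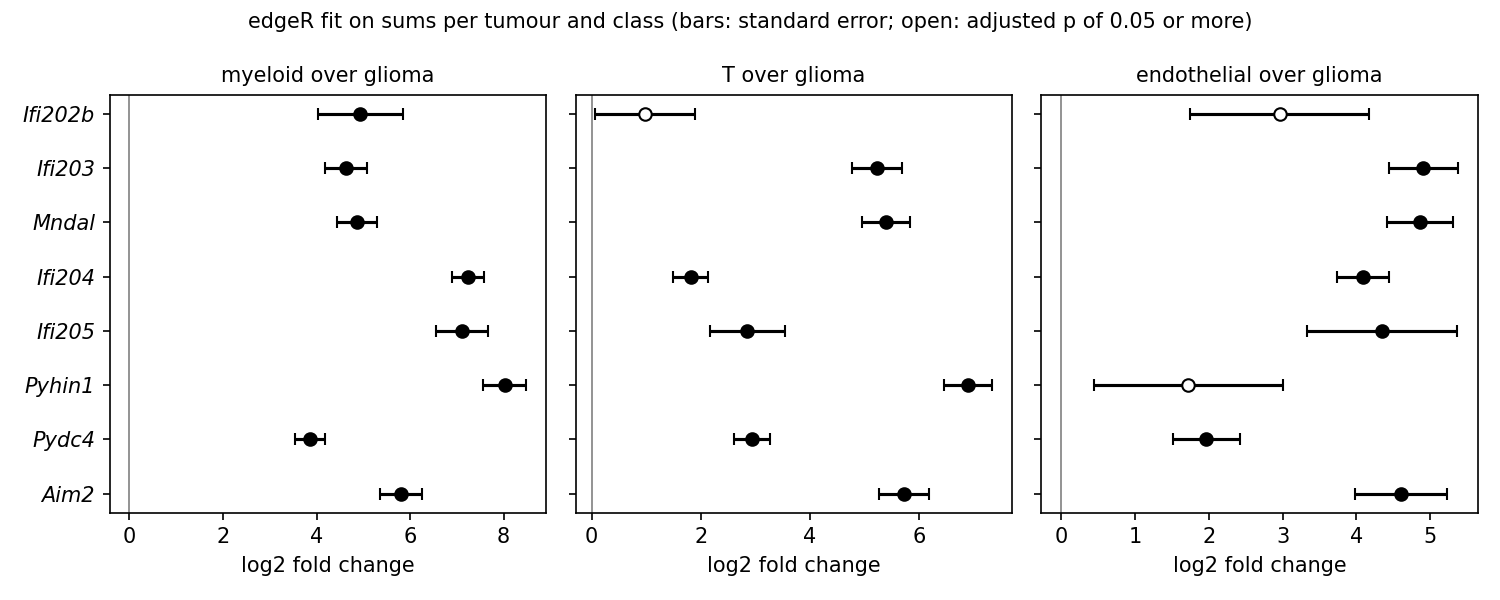
Log2 fold change of the 8 members in myeloid, T and endothelial cells over EGFP-high glioma cells, from the edgeR fit on sums per tumour and class; bars are standard errors, and open points have an adjusted p of 0.05 or more. All 8 points are filled in myeloid cells, while Ifi202b is open in T cells (0.98) and ECs (2.96) and Pyhin1 in ECs (1.72).

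Within the myeloid cells, a further fit over 13283 genes set monocytes against microglia, where 4.09% of all genes were called higher in monocytes and 4.05% lower. Of the members, 4 were higher in monocytes: Ifi205 by 3.37 ± 0.35 (edgeR adjusted p = 4.49e-05), Ifi203 by 3.35 ± 0.25, Mndal by 2.50 ± 0.26 and Pyhin1 by 1.78 ± 0.36 on the log2 scale. Ifi202b did not pass at 1.48 ± 0.59 (edgeR adjusted p = 0.161), nor did Pydc4 at 1.11, Ifi204 at 0.66 and Aim2 at -0.53. The Ifi202b value again comes from tumour 2 alone, in which it was 1.25, and it passed with no filter on low counts (edgeR adjusted p = 0.00220). Without the block 1 of the 4 calls was kept, that of Ifi205.

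The other genes of the pathway were read from 2 fixed lists. Of 39 interferon-response genes tested, 29 were higher and 0 lower in myeloid over glioma cells, where 25.8% of all genes were higher and 25.5% lower, and their median log2 fold change was 1.38, against -0.000366 over all genes. Among them were Oas3, an enzyme that activates RNase L (7.23), Phf11b (6.11) and Oasl1 (5.66). In T cells 9 of the 39 were higher, a share like the 24.6% of all genes, and 5 were lower, where 23.4% of all genes were, with Ifi27l2a among the first (3.06) and Oasl2 (-1.32) and Cmpk2 (-1.21) among the second. In ECs 23 were higher and 0 lower, where 15.1% of all genes were higher and 12.5% lower, led by Slfn5 (5.06), Oas2 (3.30) and Trim30a (3.16). Of 17 DNA-sensing and inflammasome genes tested, against the same shares of all genes, 15 were higher in myeloid cells, with the cytokine gene Il1b (8.11) and the inflammasome sensors Nlrp3 (8.04) and Naip2 (7.62) in front. T cells had 15 higher and 1 lower, the first led by Tmem173, which encodes Sting (4.47). The gene lower in T cells was Il18 (-1.91), which was lower in ECs as well (-2.14). In ECs 10 of these 17 were higher and 2 lower. In monocytes over microglia, where 4.09% of all genes were higher and 4.05% lower, 5 of 39 interferon genes were higher and 1 lower, and 3 of 20 DNA-sensing genes were higher: Mefv (5.03), Il1b (2.44) and Samhd1 (2.03).

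Between the tumours, with no test, the interferon list was read as a whole, by its sum and its median. These measures are not like the fold of Ifi202b, 1 gene picked for its gap, and single genes of the list were not set against it. The summed level of the list was 7900 CPM in microglia of tumour 2 and 7607 CPM in tumour 1. In microglia 10 of its 39 genes were higher in tumour 2. In monocytes the sums were 12738 CPM in tumour 2 and 15909 CPM in tumour 1. In T cells they were 4894 CPM and 4103 CPM, and in glioma cells 5851 CPM and 3841 CPM. The median log2 ratio of the list in microglia was -0.90, against -0.30 over all genes, so most genes were lower there as well.

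Ifi202b was placed among all genes by its smallest log2 ratio of tumour 2 over tumour 1 in myeloid cells, T cells and ECs, a value of 2.05, with 3 UMIs as the floor. By this measure it ranked 13 of 8969 genes, a description, since it was chosen for this difference. Its value sets the level counted in T cells against the floor and leaves out counting error. Ifi202b ranked 7 with a floor of 1 UMI, and 67 of 12854 genes without ECs. By counted levels, 14 genes (0.156%) were at least 4-fold higher in all 3 classes, and 9 (0.1%) at least 4-fold lower. The 8 genes of highest rank were Gm10709, Wfdc12, Gm8730, Serpinb1a, Gm42418, Hmox1, Col9a3 and Slc7a11. Gm10709 had 16510 UMIs in myeloid cells of tumour 2 and 13 in tumour 1, and in glioma cells its level was 498 CPM in tumour 2 and 1.64 CPM in tumour 1. Wfdc12 had 327 CPM in glioma cells of tumour 2 and 2.92 CPM in tumour 1. Serpinb1a, a serine protease inhibitor gene, had 110 UMIs in myeloid cells of tumour 2 and 3 in tumour 1. Slc7a11, the cystine transporter gene, was the only 1 of these 8 that was lower in glioma cells of tumour 2, at 8.52 CPM against 16.7 CPM. The 8 genes lowest in tumour 2 by the same measure were Slc1a2, Aqp4, Slc38a3, Gm26532, Slc4a4, Camk2n1, Tsix and Mid1. Slc1a2 and Aqp4 encode the glutamate transporter and the water channel of astrocytes. The counts given next come from classes of unlike size. Glioma cells held 159580942 UMIs and myeloid cells 16348279 in tumour 1, and 79360391 and 36871726 in tumour 2. In tumour 1 Slc1a2 had 27593 UMIs in glioma cells and 529 in myeloid cells, and Aqp4 had 9488 and 141. Hmox1 went the other way in tumour 2, with 6041 and 51911, as did Slc7a11, with 676 and 11476. How much of such host-cell counts is free glioma RNA was not tested. The family gene Gm4955 ranked 12 in that direction, with 330 UMIs in myeloid cells of tumour 2 and 1123 in tumour 1. With 1 library a tumour, no replicate measures the spread of these ratios.

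On chromosome 1 the Ifi202b model spans chr1:173962568-173982744 on the minus strand. The 10 annotated genes on its lower side were all of the Ifi200 family, and the nearest gene on its upper side was Ifi205, whose start lies 49.1 kb away. Among the genes beyond Ifi205 were 8 olfactory receptor genes. Of these, Olfr433 had 9 UMIs in myeloid cells of tumour 2 and 2 in tumour 1, and the other 7 receptor genes had none in the 4 main classes. None of these family and receptor genes was higher in tumour 2 in myeloid, T, endothelial and glioma cells alike. Pyhin1 came nearest, higher in 3 of the 4 and with 0 UMIs in ECs of tumour 2. Ifi203, which starts 40.1 kb below, was lower in tumour 2 in all 4.

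**Figure D5:**
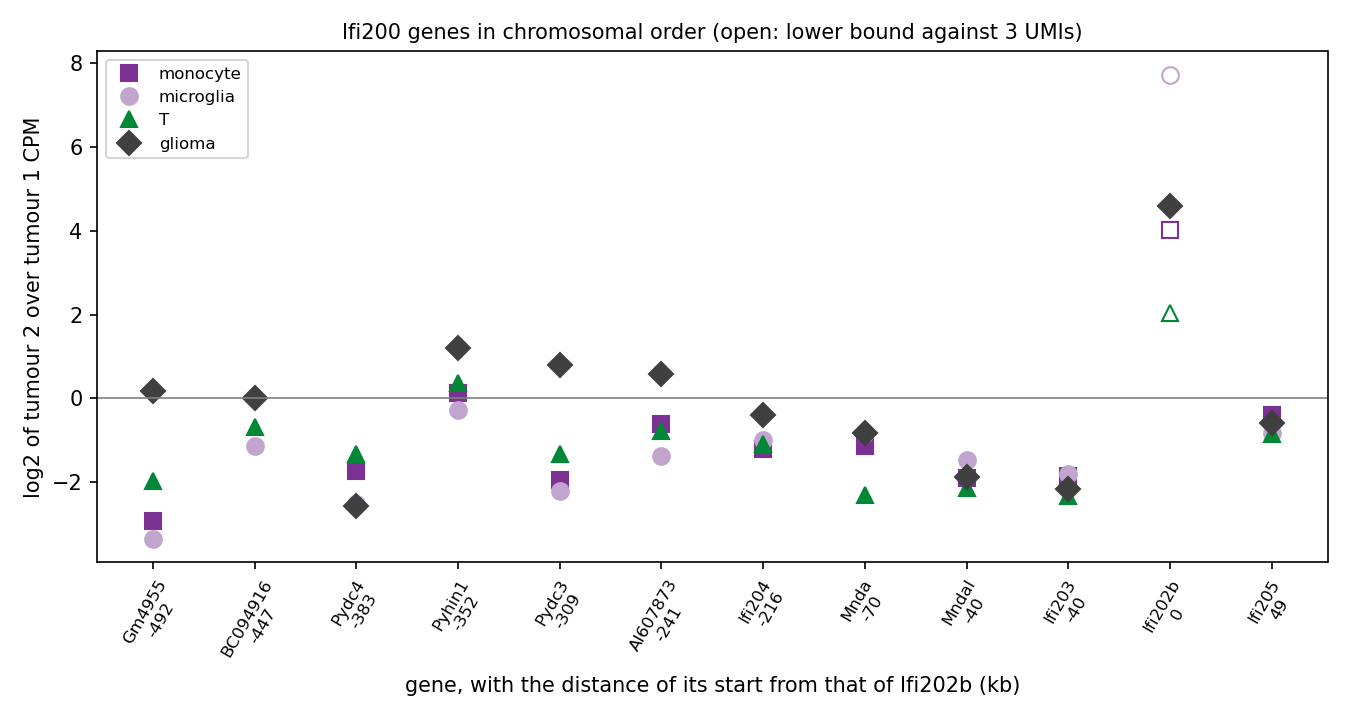
Log2 ratio of tumour 2 over tumour 1 CPM for 12 family genes in chromosomal order, with the distance of each start from that of Ifi202b in kb (Aim2 is not drawn). Symbols are cell classes. Open symbols are lower bounds against 3 UMIs in tumour 1 and leave out counting error in tumour 2. Ifi202b is the only gene with all 4 symbols (monocytes, microglia, T cells and glioma cells) above 2, and Pydc4, Mndal and Ifi203 on its lower side have all 4 of these below -1.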

How the data were processed

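Single-cell RNA libraries of 2 tumours were analysed, 1 per tumour. The authors sorted cells, aligned 3′ reads with Cell Ranger 4.0.0 to the mm10 build (GRCm38), with transgenes added, and deposited raw UMI counts per gene and barcode; the submitters' notes also name Seurat, whose output was not used. The deposited gene and barcode tables hold names only. Members and lists were chosen with earlier results of these data known.

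Barcodes with at least 500 genes, under 20% mitochondrial and under 5% haemoglobin UMIs were kept (15507 in tumour 2, 12850 in tumour 1). A myeloid cell needed 5 markers and 5000 CPM of the list, a T cell 3 and 500 CPM, an EC 5 and 2000 CPM, a mural cell 5 and 1500 CPM. Host cells had under 3000 CPM of EGFP. Glioma cells had at least 3000 CPM of EGFP, 5 of 10 glioma markers at 1000 CPM, and host markers below a low level (for myeloid markers, 3 markers and 1000 CPM). Microglia needed 3 of 6 markers at 300 CPM and monocytes 3 of 6 at 1000 CPM. Markers came from a fixed list, and thresholds were set after the files had been read. No doublet caller was run: cells past 2 gates got no class, and the tenth of cells with the most UMIs was left out as an alternative.

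Counts were summed per tumour and class with at least 20 cells in both tumours, 12 sums of 6 classes. They were tested with edgeR 4.0.16 (glmQLFit, glmQLFTest, TMM, filterByExpr; R 4.3.3, limma 3.58.1), with the tumour as a block, 5 residual degrees of freedom, and Benjamini-Hochberg adjustment over all genes at 0.05. The subtype fit had 16 sums and 7 residual degrees of freedom. All classes of a library come from 1 animal, so the tumour pairs them: the 15 correlations of class deviations were 0.174 to 0.643. The block takes out the difference between the tumours. Each p-value thus rests on how far class differences vary between the 2 tumours, a spread shared over all classes. The scripts were tested on simulated data. Alternatives were RLE scaling, DESeq2 1.42.0, no filter, no block, each tumour left out, other cell filters, stricter gates, other myeloid genes in the ratio, and another floor. Intervals are exact Poisson (levels), exact binomial (shares) and exact conditional (ratios), from SciPy 1.17.1. Thinning drew 2000 UMIs per cell at random.

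The genes named are the 8 members, the other family symbols, the 8 genes most like Ifi202b in each direction, its neighbours (10 on each side, of which not all are reported here), and up to 3 genes per list, comparison and direction with the largest change past the threshold. Promoters were matched by symbol to RefSeq; Ifi204 is named only. Shared ends compare 50-base windows in the last 500 bases of annotated transcripts.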

Additional observations from a re-analysis of the deposited data

Results flagged for a closer look

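Ifi202b UMIs were also counted in barcodes that entered no comparison. Cells with no class held 572 in tumour 2, a level of 3.69 CPM (3.39 to 4.0), and 0 in tumour 1, where 3 UMIs would be 0.0320 CPM. In tumour 2 the level was 17.7 CPM (403 UMIs in 4165 cells) among those with 3 or more myeloid markers and 1000 CPM of them, 2.90 CPM (29 UMIs) among EGFP-high cells below it and 1.14 CPM (140 UMIs) among EGFP-low cells below it. Barcodes that failed the cell filters held 49 UMIs in tumour 2, a level of 4.16 CPM (3.08 to 5.50), and 0 in tumour 1, where 3 UMIs would be 0.647 CPM.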

How the results depend on the processing

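Of the members' log2 fold changes tested under the alternatives, 268 kept their side of the threshold, 7 fell below it and 5 passed it anew. The value of Pyhin1 in ECs, which did not pass, was -6.68 without the tenth of deepest cells (edgeR adjusted p = 0.520), where ECs held 0 of its UMIs; no other changed direction. Without the replicate block, 2066 genes were higher and 1794 lower in myeloid over glioma cells, 1618 and 1605 in T cells, 1187 and 705 in ECs, 120 and 112 in monocytes over microglia, and 1 member was called in monocytes over microglia. Without the block Ifi203, Mndal and Pyhin1 lost their monocyte calls (edgeR adjusted p = 0.148, 0.288 and 0.124), and Pydc4 its EC call (0.201). Ifi205 lost its EC call without the tenth of deepest cells (0.169). With a tumour left out each sum stands alone and no test is possible, and the 59 values this left kept their direction; without tumour 1 the myeloid log2 fold change of Ifi202b was 5.99, and without tumour 2 it has no value.

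The Ifi202b level in myeloid cells of tumour 2 was 82.2 CPM without the tenth of deepest cells. Its share of cells in tumour 2 moved with depth and gate: T cells 0.336% at 1000 UMIs, 4.70% unthinned and 0.346% with the strict gate; ECs 0 and 30.4%; glioma cells 0.252%, 2.798%, 0.311% (strict) and 0.236% (mitochondrial limit 10%); myeloid cells 6.74%, 54.1% and 15.3% (strict). In tumour 1 the unthinned glioma share was 0.0782%. Against the myeloid ratio, T cells had 4.23 with Lyz2, 1.35 with Ctss, 1.45 with Fcer1g and 1.45 with Ms4a6c; mural cells 188 with Fcer1g and 153 with Fcgr3; glioma cells 3.08 with Lyz2, 2.87 with Ctss, 3.04 with Fcer1g, 3.79 with Ms4a6c and 2.76 with Cybb. Fcgr3, Ms4a6c and Cybb, and the alternatives of the subtype fit, were added after seeing the data. With myeloid and T cells alone, 73 genes were at least 4-fold higher and 95 lower, and Ifi202b ranked 67; with a floor of 1 UMI, 22 and 13, and it ranked 7. The cause of these shifts was not tested. The 23 ECs and 19 mural cells of tumour 2 limit their levels.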
